A study of Mus musculus with 4 samples.

Results

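The genes that carry new proteins into the endoplasmic reticulum (ER), trim them, glycosylate them and help them fold were examined at the mRNA and the ribosome level in mouse blastocysts. The list held 35 genes of the 20714 gene symbols found in both assays. It was drawn up by gene name, not by level, but with earlier results of these data known. It covered the signal recognition particle (SRP) and its receptor, the translocon, the translocon-associated protein complex (TRAP), the signal peptidase, the oligosaccharyltransferase, the disulfide isomerases, the lectin chaperones and the IRE1 branch of the unfolded protein response. RNA-seq (Smart-Seq2, polyadenylated RNA) and Ribo-seq, which sequences the fragments protected by ribosomes (RPF), were run on 2 replicate libraries each. All 4 libraries came from untreated wild-type embryos. The strain field of the labels reads C57BL/6N x PWK, whereas the collection protocol names C57BL/6J females, 4 weeks old, and PWK/PhJ males. Embryos were taken at the 8-cell stage, grown to blastocysts in culture, and freed of the zona pellucida, so that each library mixes trophectoderm and inner cell mass, and fewer cells of a type and less RNA per cell cannot be told apart. The sources used here do not say that replicates were separate pools of embryos, and p-values measure the spread between these libraries, which may be technical.

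In cells, SRP binds the signal sequence of a nascent chain, slows elongation, and docks the ribosome on the SRP receptor, which hands the chain to the Sec61 channel. Signal peptidase then removes the signal sequence and the oligosaccharyltransferase adds an N-linked glycan as the chain enters the lumen. Calnexin and calreticulin bind the trimmed glycan and work with disulfide isomerases until the chain is folded, and unfolded chains activate IRE1, which splices Xbp1 mRNA to give a transcription factor for ER genes. In the blastocyst, this route serves the junction, pump, receptor and basement membrane proteins of the trophectoderm and the primitive endoderm.

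The blastocyst label was checked first. The 5 trophectoderm markers were listed in every library, with Krt8 at 1078 and 838 FPKM in RNA-seq and at 1418 and 1382 FPKM in Ribo-seq, and Pou5f1 of the inner cell mass was at 70.1 and 28.6 FPKM in RNA-seq and at 475 and 496 FPKM in Ribo-seq. Of the other inner cell mass markers, Sox2 mRNA was only at 0.889 and 0.682 FPKM and Sox17 mRNA at 0.204 and 0 FPKM, although their RPF levels were at 37.1 and 35.4 FPKM and at 32.7 and 27.6 FPKM. The 4 cumulus and granulosa markers (Amh, Fshr, Cyp19a1 and Inha) were listed at 0 throughout, and of the oocyte markers Zp3 reached at most 1.92 FPKM. The deposited FPKM fell on steps of whole fragments, which implied 5458353 and 5155928 fragments in RNA-seq but only 531029 and 482662 in Ribo-seq. For a coding sequence of 1000 bases, 1 footprint was worth 2.36 and 2.59 FPKM. The footprints given below are these implied numbers with exact Poisson intervals at the 95% level, and they cover counting error only. The steps also showed that the authors' program divided by an effective length, meaning the length left after a typical fragment is subtracted, which raises the FPKM of short coding sequences. Sec61g, with 207 coding bases, was raised 5.94-fold by this, and Calr, with 1251 coding bases, 1.19-fold. Levels are therefore given as deposited and, where genes are ranked, on the full length as well.

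**Figure D1:**
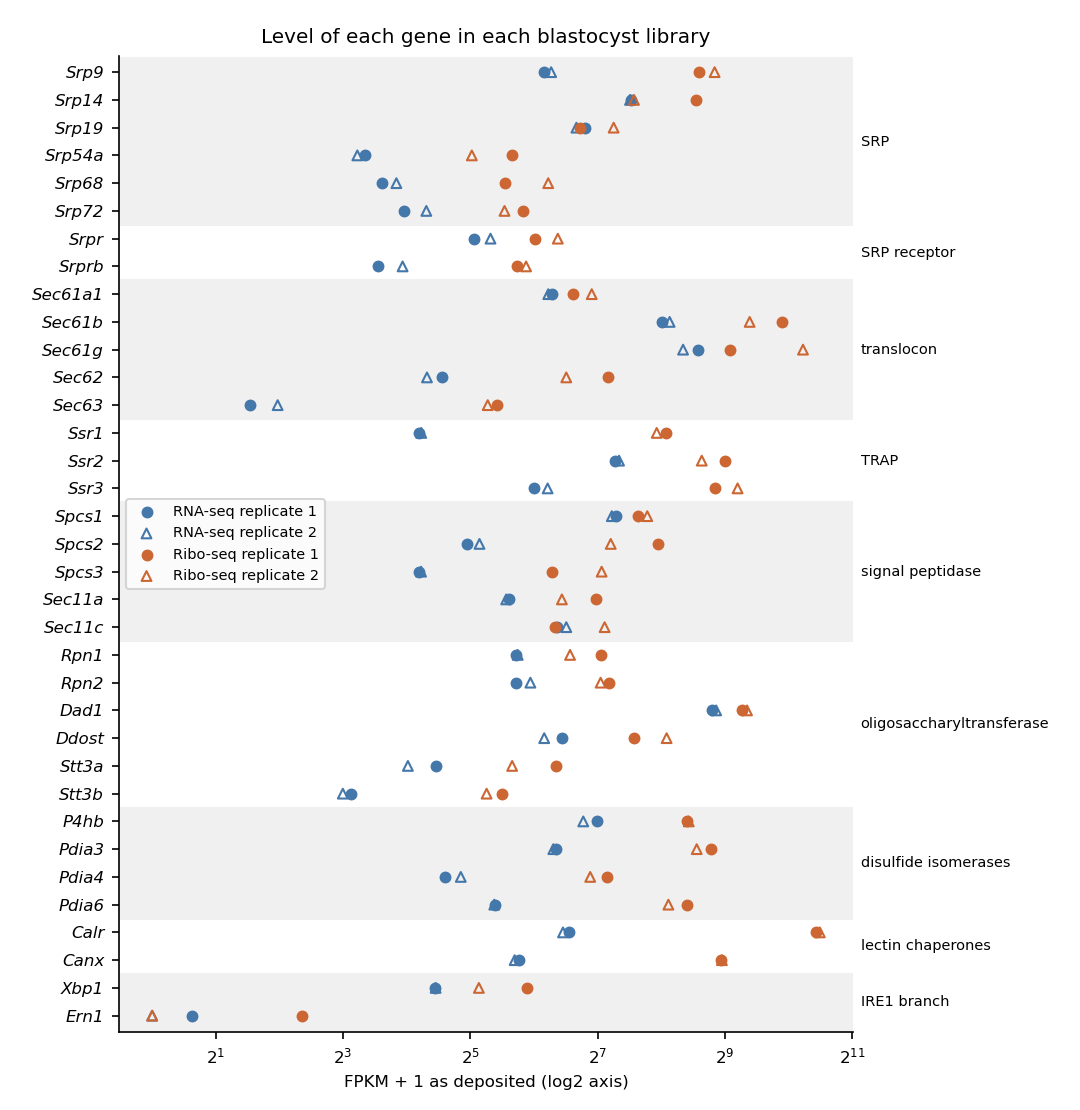
Each row is a gene, and the horizontal log2 axis gives its deposited FPKM plus 1 in RNA-seq replicates 1 and 2 (blue) and Ribo-seq replicates 1 and 2 (orange), with circles for replicate 1 and triangles for replicate 2. Calr had the highest RPF level, 1385 and 1440 FPKM, and Ern1 was listed at 0 in RNA-seq replicate 2 and Ribo-seq replicate 2.

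RPF and mRNA levels were compared with limma on log2(FPKM+1), in which a difference understates the change of low genes. Each assay had its own libraries, so a difference between assays may also hold a difference in embryos or cell mix, which was not tested. The difference was centred on the median of the 8327 genes with a mean of at least 1 FPKM in both assays, where RPF lay above mRNA by 1.26 on the log2 scale, so a value of 0 stands for the typical gene and not for equal FPKM. A gene was called at an adjusted p under 0.05 and a centred difference of at least 2-fold. Of the 35 genes, 34 passed the filter on low values, and Ern1 did not. The calls were 6 genes higher at the ribosome than at the mRNA level and 0 lower, where 9.13% of all tested genes were called higher and 3.24% lower. The 6 were Calr, Ssr1, Sec63, Canx, Ssr3 and Pdia6, that is, both lectin chaperones, 1 disulfide isomerase, 2 subunits of TRAP and 1 translocon subunit. No subunit of SRP, the SRP receptor, the signal peptidase or the oligosaccharyltransferase was called in this fit. At an unadjusted p under 0.05, 14 of the 34 genes were higher and 4 lower. Limma with a trend called 10 higher, among them Srp9, Spcs2, Pdia3 and Pdia4, and 1 lower, Srp19. Without Ribo-seq replicate 1, Srp9, Srp68 and Spcs3 were also called higher and Srp14 lower. Without Ribo-seq replicate 2, Pdia3, Sec62 and Spcs2 were also called higher and Sec11c, Sec61a1, Spcs1 and Srp19 lower. The median difference of the 34 was 0.40, where that of all tested genes was 0 by construction. All 6 calls were lost without RNA-seq replicate 1 or without RNA-seq replicate 2, when the lone library was assumed to vary like the Ribo-seq pair. The lowest adjusted p was then 0.29 and 0.306, and 0 of all tested genes were called, with 1317 and 1260 at an unadjusted p under 0.05. Of all calls, 73.8% were higher, against 57.5% after quantile normalization and 98.4% without centring.

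**Figure D2:**
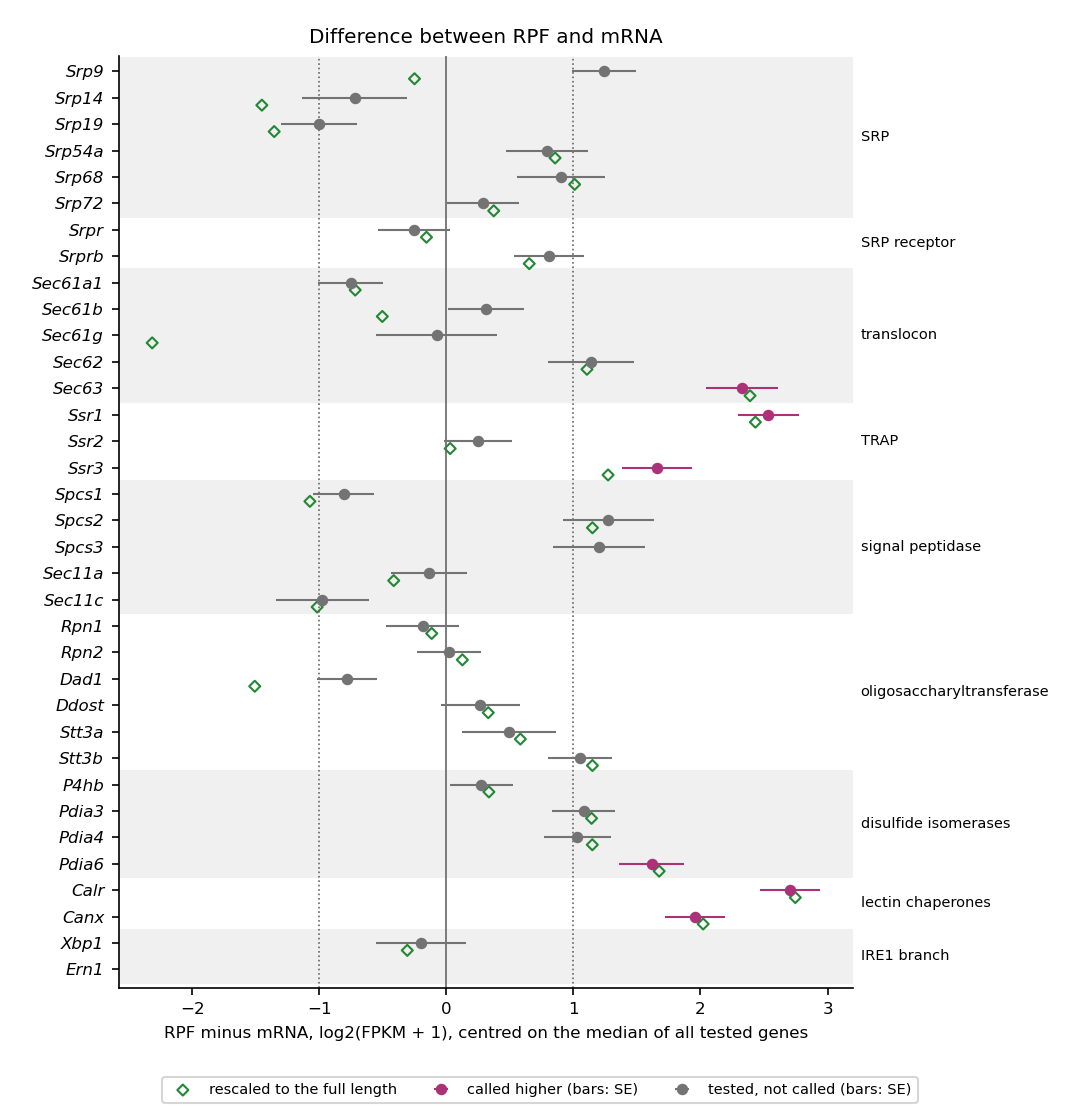
The horizontal axis gives the centred difference of RPF minus mRNA in log2(FPKM+1) for each tested gene, with its SE from limma, and dotted lines mark 2-fold. The 6 called genes (purple) reached from 1.61 (Pdia6) to 2.70 (Calr), and the open green diamonds give the same difference on the full length, which moved Sec61g to -2.31 and Dad1 to -1.51.

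On the full length, the 2 lectin chaperones had the highest RPF levels of the list. Calr (chr8:87365749-87370833 on NCBIM37, minus strand) encodes calreticulin, the soluble lumenal lectin that also buffers calcium. Its mRNA was at 92.4 and 86.8 FPKM, and its RPF at 1385 and 1440 FPKM, from 773 and 730 footprints. Both Ribo-seq libraries thus stood far above both RNA-seq libraries, and the RPF level ranked at the 98.8th percentile of all genes in each. The centred difference was 2.70 (SE 0.236, adjusted p = 0.0184 in limma). Canx (chr11:50107969-50139175, minus strand) encodes calnexin, the membrane-bound relative of calreticulin. Canx mRNA was at 53.3 and 50.9 FPKM and its RPF at 492 and 495 FPKM, with 411 and 376 footprints. The Canx replicates agreed closely in each assay, and the difference was 1.96 (SE 0.235, adjusted p = 0.0255 in limma). On the full length, they led the list in both Ribo-seq libraries, at 1160 and 1210 FPKM for Calr and at 436 and 439 FPKM for Canx, whereas Dad1 and Sec61g had the highest mRNA levels in both RNA-seq libraries. As deposited, Calr still had the highest RPF level, but Sec61b, Sec61g and Dad1 exceeded Canx in both libraries. The testis paralogues were near absent. Clgn was listed at 0 in all 4 libraries, and Calr3 had 3 footprints and 1 footprint.

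Among the disulfide isomerases, which form and rearrange disulfide bonds, Pdia6 was called higher. Pdia6 (chr12:17273351-17291576, plus strand) was at 40.8 and 40.5 FPKM in mRNA and at 337 and 276 FPKM in RPF, and the difference was 1.61 (SE 0.255, adjusted p = 0.0384 in limma). This call was also lost with a pseudocount of 0.1 (adjusted p = 0.0593) and after quantile normalization (adjusted p = 0.057). Pdia3 encodes the isomerase that works on glycoproteins bound to calnexin and calreticulin. Pdia3 mRNA was at 80.6 and 78.0 FPKM and its RPF at 439 and 376 FPKM, and its difference of 1.08 did not pass (SE 0.247, adjusted p = 0.0655 in limma). Pdia4, which has an additional thioredoxin-like domain, was at 23.2 and 27.8 FPKM in mRNA and at 141 and 117 FPKM in RPF, with a difference of 1.03 (SE 0.267, adjusted p = 0.0794 in limma). P4hb, which encodes the founding protein disulfide isomerase and the beta subunit of prolyl 4-hydroxylase, had the highest mRNA level of the 4, at 126 and 109 FPKM. Its RPF was at 338 and 345 FPKM and its difference was 0.28, or -0.20 after quantile normalization. P4hb therefore led the 4 genes at the mRNA level, while Pdia3 led them at the RPF level in both replicates.

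The lumenal proteins of this group are returned to the ER by a signal at their carboxy terminus. The last 30 coding bases of each gene are shown to compare that signal, with the 4 codons before the stop codon in capitals (GENCODE vM1 transcripts, coding strand, 5′ to 3′).
Calr: tcccctggccaagccAAGGATGAGCTGtag
Pdia6: ctggatgacctggagAAGGATGAGTTGtga
P4hb: gatcagaaagctgtgAAGGATGAACTGtag
Pdia3: aagaagaagaaggcaCAAGAGGACCTCtaa
Pdia4: aagaggagcaggaccAAGGAAGAGCTTtaa
Hspa5: gaggatacatcagaaAAAGATGAGTTGtag
The 4 codons of Calr, Pdia6 and P4hb encode the same residues as those of Hspa5, although they differ from it in 2, 1 and 3 codons. Pdia3 and Pdia4 encode variants of the signal that differ from Hspa5 in 4 and 3 codons. Of the genes shown, Calr, Pdia6 and Hspa5 were called higher, and P4hb, Pdia3 and Pdia4 were not. Hsp90b1, whose sequence is not shown, encodes the same 4 residues as Hspa5 and was not called. A link between the signal and the calls was not tested.

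Hspa5 and Hsp90b1, the lumenal Hsp70 and Hsp90 chaperones, which are outside the list, gave values close to these. Hspa5 mRNA was at 42.0 and 62.9 FPKM and its RPF at 407 and 426 FPKM, and it was called higher (difference 1.73, SE 0.309, adjusted p = 0.0453 in limma). Hsp90b1 was at 45.6 and 72.5 FPKM in mRNA and at 381 and 335 FPKM in RPF, and its difference of 1.35 did not pass (SE 0.335, adjusted p = 0.0747 in limma). The RNA-seq replicates of both genes differed more than those of Calr or Canx. Both chaperones are textbook targets of the unfolded protein response, whose factors bind the ER stress response element, a CCAAT box and a CCACG box set 9 bases apart (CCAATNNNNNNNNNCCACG, searched on both strands).

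Promoters are shown here because 3 of the called genes held this element. RefSeq promoters (250 bases before to 50 after the start, GRCm38.p6) were at hand for 29 of the 35 genes, and the element was found in 3 of the 29 (10.3%), against 37 of 27025 genes (0.137%), or 39 of 32851 promoters (0.119%). The 3 were Calr, Canx and Pdia6, whereas the promoters of the called genes Ssr1, Ssr3 and Sec63 did not hold it. The stretch around each is given here as read along the gene, with the element in capitals, and that of Hspa5 for comparison.
Calr (chr8:84847045-84847123, minus strand): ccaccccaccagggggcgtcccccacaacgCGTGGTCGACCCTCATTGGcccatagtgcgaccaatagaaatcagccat
Canx (chr11:50325770-50325848, minus strand): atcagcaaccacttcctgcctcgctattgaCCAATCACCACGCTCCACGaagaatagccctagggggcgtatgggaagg
Pdia6 (chr12:17266461-17266539, plus strand): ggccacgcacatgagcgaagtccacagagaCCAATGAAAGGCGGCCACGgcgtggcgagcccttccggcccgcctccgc
Hspa5 (chr2:34771995-34772073, plus strand): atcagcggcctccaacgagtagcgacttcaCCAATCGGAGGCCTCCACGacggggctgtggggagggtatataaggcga
The element began 162, 145 and 98 bases before the start of Calr, Canx and Pdia6, and 65 bases before that of Hspa5, and in Calr it lay on the opposite strand. Of the other pathway genes described below, 71 had a promoter, and 6 of them held the element (Syvn1, Derl3, Hspa5, Hsp90b1, Dnajc3 and Creld2). Hspa5 and Dnajc3 were called higher, Syvn1, Hsp90b1 and Creld2 were not called, and Derl3 was not tested. The shorter second element (ATTGGNCCACG, both strands) was in 0 of the 29 promoters and in 12 of all 32851 (0.0365%). It was in 3 of the 71 other genes, Krtcap2, Dnajb11 and Herpud1, of which only Dnajb11 was called higher. A match to these letters is a description of the window, no binding was measured, and a link between the element and the calls was not tested.

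Of the IRE1 branch, Ern1 was low and Xbp1 was not. Ern1, which encodes IRE1, was at 0.537 FPKM in RNA-seq replicate 1 and listed at 0 in replicate 2. Its RPF was at 4.10 FPKM, or 6 footprints, in replicate 1 and at 0 in replicate 2, where 3 footprints, a one-sided limit for a count of 0, would be 2.27 FPKM and the exact Poisson interval reached 2.8 FPKM. The mean Ern1 mRNA of 0.268 FPKM was below the filter, so Ern1 was not tested. In RNA-seq replicate 1, 1 fragment at 1000 bases was worth 0.229 FPKM. The Ern1 transcript has 6946 bases, so its 0.537 FPKM was not at the counting limit of that library. Ern2, its gut paralogue, was listed at 0 in all 4 libraries. The other sensors were also low, with Atf6 mRNA at 2.47 and 2.12 FPKM and Eif2ak3 mRNA at 1.58 and 1.76 FPKM, and neither was called. Xbp1, the target of IRE1, was at 20.7 and 20.9 FPKM in mRNA and at 58.1 and 34.1 FPKM in RPF, from 19 and 10 footprints. The 2 Ribo-seq intervals for Xbp1 overlapped, at 35.7 to 92.6 FPKM and 16.5 to 63.1 FPKM, and its difference was -0.20 (SE 0.352, adjusted p = 0.721 in limma) but 1.06 without centring.

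IRE1 removes a stretch of 26 bases from Xbp1 mRNA, which shifts the reading frame. The stretch is shown because the coding sequence used here to derive the Xbp1 footprints includes it. The annotation behind the deposited Xbp1 value was not examined. The removed bases are in capitals, with 18 coding bases on each side (GENCODE vM1, transcript on chr11:5420662-5425896, plus strand, 5′ to 3′).
Xbp1: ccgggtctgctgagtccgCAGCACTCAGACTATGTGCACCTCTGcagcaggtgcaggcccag
The bases were found by comparing the annotated transcripts, where 7 placements gave the same spliced sequence and 1 matched the sites that IRE1 cuts. The removed stretch begins at base 479 of the coding sequence, and the coding sequence is 804 bases long with it and 1116 bases long in the spliced transcript. The deposited file gives a single Xbp1 value per library, so spliced and unspliced Xbp1 could not be separated here.

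At the translocon, Sec63 was called higher. Sec63 (chr10:42481302-42552320, plus strand) encodes the membrane J-protein that recruits Hspa5 to the channel. Its mRNA was the lowest of the 34 tested genes, at 1.904 and 2.92 FPKM, and its RPF was at 41.7 and 37.7 FPKM, from 46 and 38 footprints. The difference was 2.33 (SE 0.283, adjusted p = 0.026 in limma), and Sec63 fell below the stricter filter of 5 FPKM in both assays. Sec62, its partner in post-translational import, was at 22.5 and 19.0 FPKM in mRNA and at 143 and 90.003 FPKM in RPF, and its difference of 1.14 did not pass (SE 0.339, adjusted p = 0.101 in limma). Sec62 and Sec63 have the longest transcripts of the translocon genes, at 3966 and 6032 bases, and the part of transcript length in their values was not tested.

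The 3 subunits of the Sec61 channel gave no call. Sec61a1, the pore-forming subunit, was at 77.1 and 73.8 FPKM in mRNA and at 97.4 and 119 FPKM in RPF, and its difference was -0.75, or 0.51 without centring. Sec61b was at 257 and 280 FPKM in mRNA and at 952 and 670 FPKM in RPF, with a difference of 0.31, or -0.50 on the full length. Sec61g was at 383 and 324 FPKM in mRNA and at 538 and 1199 FPKM in RPF. The large Sec61g values rested on 10 and 20 footprints, with intervals of 259 to 995 FPKM and 727 to 1840 FPKM, so its replicates did not differ beyond counting error. Its difference was -0.07 (SE 0.476), -2.31 on the full length and 1.19 without centring. All windows of 28 bases in the Sec61g coding sequence were found at more than 1 place in the genome, as were 70.1% of those of Sec61b, so reads of both may be shared with copies. The second alpha subunit, Sec61a2, had 1 and 6 footprints and was not called.

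TRAP, which sits beside the channel and helps weak signal sequences to open it, had 2 called subunits. Ssr1 (chr13:38063270-38086059, minus strand), the alpha subunit, was at 17.4 and 17.8 FPKM in mRNA and at 270 and 243 FPKM in RPF. Its difference was 2.53 (SE 0.24, adjusted p = 0.0196 in limma), and it rested on 97 and 79 footprints. Ssr3 (chr3:65183577-65196545, minus strand), the gamma subunit, was at 62.8 and 73.3 FPKM in mRNA and at 459 and 587 FPKM in RPF, with a difference of 1.66 (SE 0.276, adjusted p = 0.0418 in limma). The Ssr3 call was also lost with a pseudocount of 0.1, without a filter on low values, after quantile normalization and on the full length, where the adjusted p lay between 0.0517 and 0.065. Ssr2, the beta subunit, was at 154 and 161 FPKM in mRNA and at 511 and 397 FPKM in RPF, and its difference was 0.25, or -0.21 after quantile normalization. Ssr4, the delta subunit outside the list, was at 227 and 297 FPKM in mRNA and at 578 and 520 FPKM in RPF. Hence, mRNA levels of the 3 listed subunits lay 8.85-fold and 9.05-fold apart, whereas RPF levels lay 1.89-fold and 2.42-fold apart.

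SRP gave no call in the fit used here, whereas limma with a trend called Srp9 higher (adjusted p = 0.00919) and Srp19 lower (adjusted p = 0.0399). Srp9 and Srp14 form the domain that slows elongation. Srp9 was at 70.6 and 76.2 FPKM in mRNA and at 387 and 457 FPKM in RPF, and its difference of 1.24 (SE 0.251, adjusted p = 0.0538 in limma) was -0.25 on the full length. With the filter at 5 FPKM, Srp9 was called higher (1.18, adjusted p = 0.0274 in limma), and without Ribo-seq replicate 1 likewise (1.27, adjusted p = 0.0268 in limma). Srp14 was at 183 and 181 FPKM in mRNA and at 372 and 189 FPKM in RPF, with a difference of -0.72, or 0.54 without centring. The deposited RPF of Srp9 exceeded that of Srp14 in both libraries, yet on the full length Srp9 was at 105 and 124 FPKM and Srp14 at 150 and 76.2 FPKM, so that their order differed between the replicates. These values rest on 15 and 16 footprints for Srp9 and on 26 and 12 for Srp14, and 78.6% of the Srp9 windows were found at more than 1 place.

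The other domain of SRP binds the signal sequence. Srp19, which loads Srp54 onto the RNA, was at 110 and 101 FPKM in mRNA and at 105 and 151 FPKM in RPF, so that its assays overlapped, and its difference was -1.001 (SE 0.301, adjusted p = 0.103 in limma), or 0.26 without centring. Srp68 and Srp72, which form a dimer on the SRP RNA, had differences of 0.90 and 0.29. Srp68 mRNA was at 11.2 and 13.3 FPKM and its RPF at 45.7 and 73.8 FPKM. Srp72 mRNA was at 14.5 and 18.8 FPKM and its RPF at 55.7 and 45.4 FPKM. The order of Srp68 and Srp72 at the RPF level was opposite in the 2 replicates. Srp54a, which encodes the subunit that recognizes the signal, was at 9.18 and 8.35 FPKM in mRNA and at 49.3 and 31.5 FPKM in RPF. All windows of Srp54a also occur in transcripts of Srp54b or Srp54c, which were at 31.3 and 21.8 FPKM and at 39.5 and 28.9 FPKM in RPF, so the split among the 3 copies is uncertain. Their summed RPF was 120 and 82.3 FPKM.

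The SRP receptor has a cytosolic alpha subunit and a membrane-anchored beta subunit, both GTPases. Srpr, the alpha subunit, was at 32.3 and 38.9 FPKM in mRNA and at 63.6 and 82.0 FPKM in RPF, with a difference of -0.25, or 1.01 without centring. Srprb was at 10.7 and 14.3 FPKM in mRNA and at 52.4 and 57.7 FPKM in RPF, with a difference of 0.81 (SE 0.275, adjusted p = 0.127 in limma). The mRNA levels of the pair lay 3.03-fold and 2.72-fold apart, and the RPF levels 1.21-fold and 1.42-fold. All Srprb windows also occur in an annotated transcript of Trf, and 42.9% of Srpr windows were found at more than 1 place, so both levels are uncertain.

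Signal peptidase subunits differed widely at the mRNA level. Spcs1 was at 156 and 148 FPKM in mRNA and at 199 and 219 FPKM in RPF, with a difference of -0.81, or 0.45 without centring. It was called lower after quantile normalization (-1.26, adjusted p = 0.0485 in limma) and without Ribo-seq replicate 2 (-1.03, adjusted p = 0.0477 in limma). Spcs2 was at 29.8 and 34.4 FPKM in mRNA and at 247 and 147 FPKM in RPF, with a difference of 1.27 (SE 0.358, adjusted p = 0.0915 in limma), and limma with a trend called it higher (adjusted p = 0.0394). Spcs3 was at 17.2 and 17.7 FPKM in mRNA and at 76.7 and 133 FPKM in RPF, with a difference of 1.20 (SE 0.362, adjusted p = 0.103 in limma). The order of Spcs1 and Spcs2 at the RPF level was opposite in the 2 replicates, although Spcs1 mRNA was the higher in both. The catalytic subunits are alternatives to each other. Sec11a was at 47.7 and 46.3 FPKM in mRNA and at 125 and 85.8 FPKM in RPF, with a difference of -0.14, or 1.12 without centring. Sec11c was at 81.4 and 90.04 FPKM in mRNA and at 79.7 and 137 FPKM in RPF, with a difference of -0.97, or 0.29 without centring. Sec11c thus had the higher mRNA in both RNA-seq libraries, while the order of the 2 at the RPF level changed between replicates, on 23 and 14 footprints for Sec11a and 16 and 25 for Sec11c.

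In the oligosaccharyltransferase, the levels of the catalytic and the smallest subunits stood at opposite ends. Stt3a, whose complex works on chains still in the channel, was at 21.1 and 15.2 FPKM in mRNA and at 80.004 and 49.5 FPKM in RPF, with a difference of 0.50. Stt3b, which can act after translation, was at 7.76 and 6.98 FPKM in mRNA and at 44.1 and 37.2 FPKM in RPF, with a difference of 1.05 (SE 0.252, adjusted p = 0.071 in limma). Stt3a exceeded Stt3b in all 4 libraries, and the intervals of the 2 genes, 63.2 to 98.9 and 32.9 to 57.5 FPKM, did not overlap in Ribo-seq replicate 1 but did in replicate 2 (36.4 to 66.3 and 26.8 to 50.7 FPKM). Dad1, a small subunit of the complex, was at 444 and 465 FPKM in mRNA, the highest of the list, and at 618 and 651 FPKM in RPF. Its difference was -0.78 (SE 0.236, adjusted p = 0.104 in limma), or 0.48 without centring, and it was called lower on the full length (-1.51, adjusted p = 0.0371) and after quantile normalization (-1.30, adjusted p = 0.0448). Rpn1 was at 51.7 and 52.6 FPKM in mRNA and at 131 and 93.8 FPKM in RPF, and Rpn2 at 51.6 and 60.6 FPKM in mRNA and at 144 and 131 FPKM in RPF. These ribophorins, which lie next to the translocon, had differences of -0.19 and 0.02, or 1.07 for Rpn1 without centring and -0.40 for Rpn2 after quantile normalization. Ddost was at 85.7 and 70.6 FPKM in mRNA and at 189 and 271 FPKM in RPF, with a difference of 0.27, or -0.20 after quantile normalization.

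Since these genes form complexes, the spread of levels among the subunits of a complex was described in each library as the SD of log2(FPKM+1) across its subunits. No test was made, because subunits are not replicates. In TRAP, this SD was 1.54 and 1.57 in RNA-seq and 0.491 and 0.637 in Ribo-seq. In the oligosaccharyltransferase, it was 1.91 and 2.02 in RNA-seq and 1.27 and 1.53 in Ribo-seq, and in SRP 1.81 and 1.74 against 1.42 and 1.42. The RPF levels of the subunits thus lay closer together than their mRNA levels in both replicates of these complexes. The signal peptidase gave 1.21 and 1.17 in RNA-seq and 0.754 and 0.477 in Ribo-seq. The Sec61 trimer went the other way as deposited, at 1.20 and 1.17 in RNA-seq and 1.70 and 1.73 in Ribo-seq, and on the full length it gave 1.11 and 1.04 in RNA-seq and 1.06 and 0.60 in Ribo-seq. Across all 8327 tested genes, the SD was smaller in RNA-seq (2.05 and 2.06) than in Ribo-seq (2.41 and 2.54), and across the 34 listed genes it was 1.65 and 1.59 in RNA-seq and 1.40 and 1.49 in Ribo-seq.

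**Figure D3:**
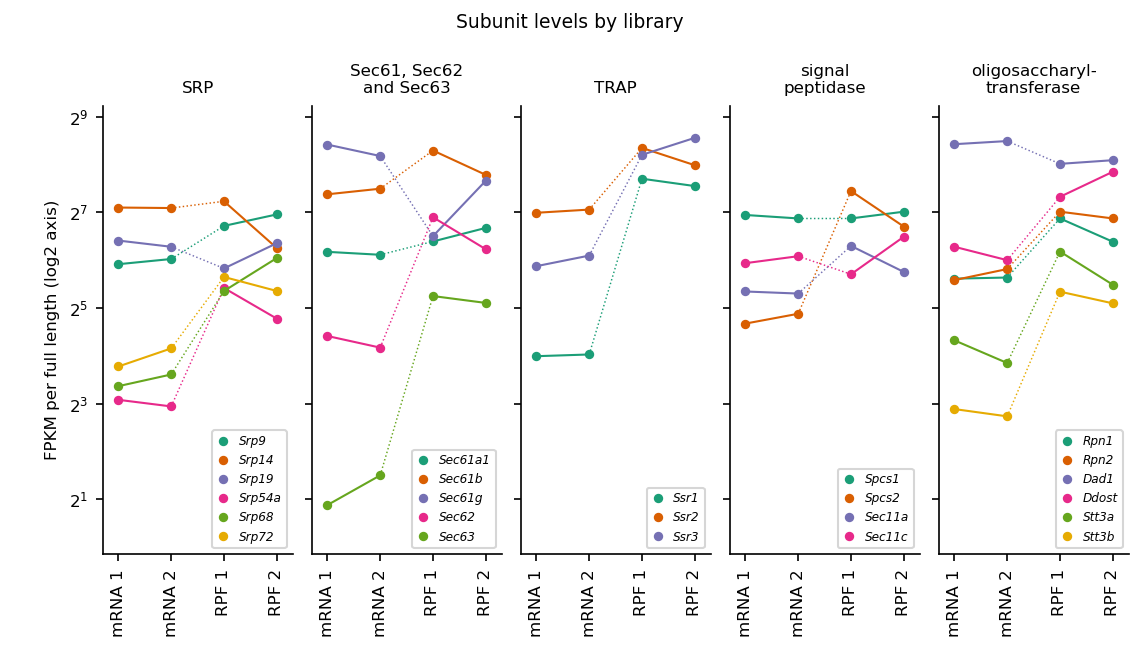
Each line is a subunit and each panel a complex, with the FPKM per full length on a vertical log2 axis in the 2 RNA-seq libraries (mRNA) and the 2 Ribo-seq libraries (RPF). Spcs3 is not shown because the annotation used gave no coding length for it. Subunits of TRAP lay 7.98-fold and 8.16-fold apart in mRNA and 1.56-fold and 2.01-fold apart in RPF.

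On the full length, which removes the inflation of short coding sequences, the RPF spread of SRP and the oligosaccharyltransferase was smaller still. The SD of SRP was 1.67 and 1.60 in RNA-seq and 0.754 and 0.76 in Ribo-seq, and its extremes lay 16.2-fold and 17.7-fold apart in mRNA but 3.67-fold and 4.52-fold apart in RPF. That of the oligosaccharyltransferase was 1.81 and 1.92 in RNA-seq and 0.918 and 1.20 in Ribo-seq. Alternatives or near copies of a subunit were also summed, a choice made after their values were seen. With Srp54a, Srp54b and Srp54c summed, SRP gave 1.43 and 1.32 in RNA-seq against 0.728 and 0.508 in Ribo-seq. Its extremes then lay 13.3-fold and 11.1-fold apart in mRNA and 3.67-fold and 3.03-fold apart in RPF. With Stt3a and Stt3b summed, the oligosaccharyltransferase gave 1.37 and 1.47 against 0.488 and 0.819. With Sec11a and Sec11c summed and Spcs3 left out, the signal peptidase gave 1.22 and 1.10 against 0.295 and 0.238, the smallest RPF spread among the complexes on this scale. The levels behind this were 131 and 144 FPKM for summed Sec11, 117 and 129 FPKM for Spcs1, and 174 and 104 FPKM for Spcs2. As deposited, Spcs3 RPF was at 76.7 and 133 FPKM, below Spcs1, Spcs2 and summed Sec11 in both Ribo-seq libraries. The small spread may therefore depend on leaving Spcs3 out. The SD over all tested genes with a length was 1.99 and 2.0 in RNA-seq and 2.22 and 2.33 in Ribo-seq.

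**Figure D4:**
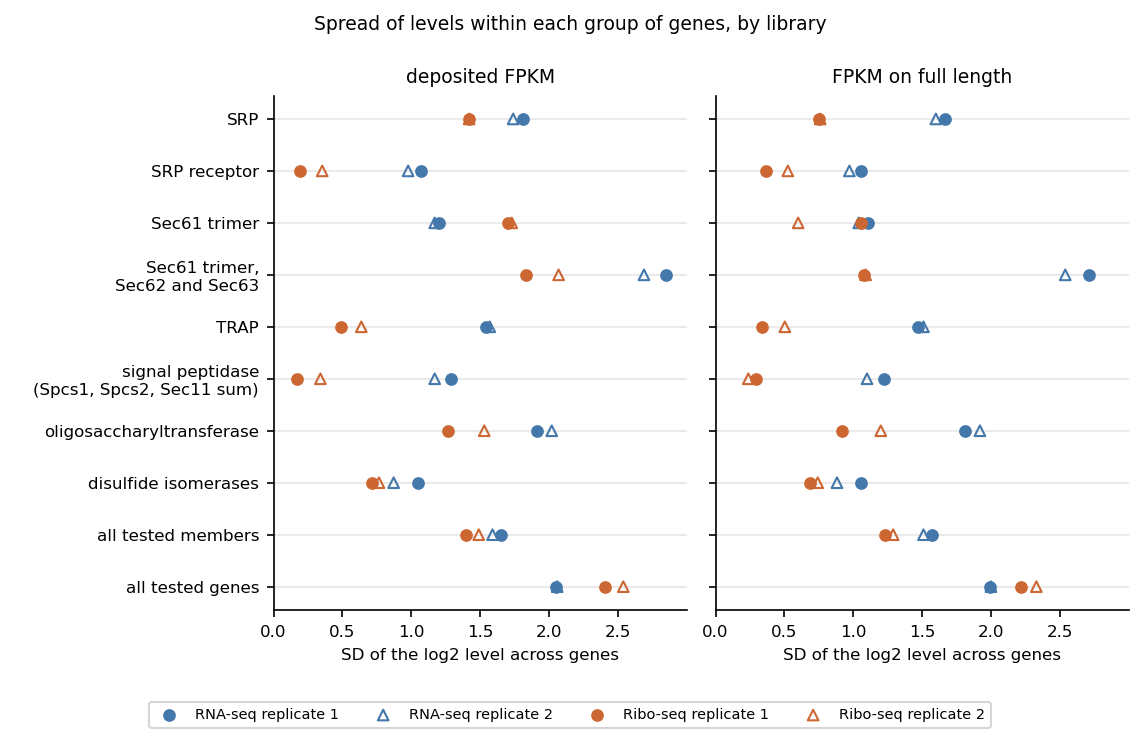
The horizontal axis gives the SD of log2(FPKM+1) across the genes of each group in each library, as deposited (left) and on the full length (right). For TRAP, the Ribo-seq values (orange) were 0.491 and 0.637 and the RNA-seq values (blue) 1.54 and 1.57, whereas for all tested genes the Ribo-seq values were the larger, at 2.41 and 2.54.

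Coding length moved with these results and is given beside them. Among the listed genes with an annotated length, 6 have fewer than 450 coding bases (Srp9, Srp14, Srp19, Sec61b, Sec61g and Dad1), and their median difference was -0.40 as deposited and -1.40 on the full length. The 27 longer genes had medians of 0.79 and 0.65. Across all tested genes, the 596 short ones had medians of 0.61 as deposited and -0.16 on the full length. The median of the short listed genes thus lay below that of short genes at large on both scales, and the part of coding length in the complex spread was tested only by this rescaling. The Spearman correlation of the full-length difference with coding length was 0.568 across 33 listed genes and 0.0387 across 7262 genes, with all points from the same 4 libraries. For the difference as deposited, it was 0.301 across the 33 genes and -0.113 across 7397 genes. With transcript length in place of coding length, the deposited difference gave 0.431 across the 33 genes and 0.0972 across the 7397. The deposited difference also had a correlation of -0.471 with mean mRNA across the 33 genes and of 0.00647 across all 7397, and mRNA enters both of these measures.

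The pathway around the list was followed through 95 further genes, of which 93 were listed in both assays and 81 passed the filter. Limma called 14 of the 81 higher (17.3%) and 1 lower, with a median difference of 0.53, where 9.13% of all tested genes were called higher and 3.24% lower. The chaperones and prolyl isomerases had 6 higher calls among 18 tested. Serpinh1, the collagen chaperone, had the largest difference of the 81, at 4.35 (SE 0.492, adjusted p = 0.024 in limma), with mRNA at 2.43 and 0.571 FPKM and RPF at 94.3 and 133 FPKM. Hyou1, an Hsp110-like partner of Hspa5, was at 1.22 and 1.56 FPKM in mRNA and at 28.7 and 31.3 FPKM in RPF, with a difference of 2.44. Fkbp2, a lumenal prolyl isomerase, was at 46.1 and 37.9 FPKM in mRNA and at 429 and 536 FPKM in RPF, with a difference of 2.23. Like Sec63, Hyou1 and Serpinh1 had mRNA levels under 3 FPKM, where log2(FPKM+1) understates a fold.

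The other lists gave fewer calls. Of the genes for disulfide formation, 4 of 16 were called higher, and the largest were the transmembrane thioredoxin-related genes Tmx4 (2.02), Tmx1 (1.73) and Tmx3 (1.60). Of the genes for glycan processing and ER-associated degradation, 2 of 12 were called higher. These were Prkcsh, the beta subunit of glucosidase II, at 10.3 and 8.33 FPKM in mRNA and 104 and 98.2 FPKM in RPF, and Derl1, a component of the retrotranslocation channel, at 11.4 and 10.5 FPKM in mRNA and 76.1 and 69.0 FPKM in RPF. In the unfolded protein response, 1 of 7 was called, Tmbim6, an ER membrane protein that restrains cell death, at 78.5 and 75.8 FPKM in mRNA and 553 and 573 FPKM in RPF. Of the 22 targeting and insertion genes, Emc8 was called higher and Emc9 lower. Both encode alternative subunits of the ER membrane protein complex, an insertase. Emc8 was at 8.88 and 7.06 FPKM in mRNA and at 53.4 and 53.9 FPKM in RPF, with a difference of 1.35 (SE 0.255, adjusted p = 0.0487 in limma). Emc9 was at 17.2 and 18.5 FPKM in mRNA and at 8.96 and 9.87 FPKM in RPF, with a difference of -2.12 (SE 0.24, adjusted p = 0.024 in limma). Emc9 was thus the higher of the pair in both RNA-seq libraries and Emc8 in both Ribo-seq libraries. The annotation used gave no coding length for either gene, so their footprints were not derived. At 1000 coding bases, 1 footprint was worth 2.36 and 2.59 FPKM, so the Emc9 RPF level may rest on very few footprints. None of the 6 further oligosaccharyltransferase genes was called in the fit used here, with 2 higher and 2 lower at an unadjusted p under 0.05. On the full length, Tmx1 and Derl1 were no longer called (adjusted p = 0.0513 and 0.0517 in limma). The glycan processing genes Ganab and Uggt1 were called higher there. The oligosaccharyltransferase gene Ost4, with 5 and 7 footprints, was called lower there (-2.88, adjusted p = 0.0235 in limma).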

How the data were processed

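The authors deposited FPKM per gene for each library. Per their methods, RNA-seq reads were trimmed with Trim Galore 0.4.2 and Ribo-seq reads with cutadapt 1.14, rRNA reads were discarded with Bowtie2 2.2.2 in Ribo-seq, reads were mapped to the mm9 transcriptome with STAR 2.5.3a with up to 20 places per read, and FPKM were computed with Cufflinks 2.2.1, over whole transcripts in RNA-seq but over coding sequences alone in Ribo-seq. The version numbers are also in the submitters' processing notes. A symbol listed more than once, as Srp54a was, took its highest value.

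The listed genes, the lists of other genes and the alternatives were chosen with earlier results of these data known. RPF and mRNA were compared with limma 3.58.1 in R 4.3.3 on log2(FPKM+1), without the replicate number in the fit, with Benjamini-Hochberg adjustment over 8327 genes. On simulated data with 200 of 8327 genes changed, this fit recovered 50% of genes changed by 3 on the log2 scale and 84% of those changed by 5. Of its calls, 3.60% fell on unchanged genes. The simulated noise followed limma's own variance model, alike in both assays and at all levels. These rates may therefore not hold for the real libraries, where Ribo-seq was shallower. Genes were named as follows: all 35 listed genes, of the other lists up to 3 called genes in each direction by size, and the paralogues, chaperones and sensors named in the text. Genes of the other lists whose call changed on the full length were named as well.

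Implied fragments came from the steps of low FPKM values with the effective length for fragments of mean 200 and SD 80 bases. Between 64.0% and 84.9% of the values tested lay within 0.1 of a whole number, where chance gives 20%. The smaller Ribo-seq depth limits the precision. Gene coordinates, lengths and windows of 28 bases came from GENCODE vM1 on NCBIM37, the assembly of mm9, and promoters from RefSeq on GRCm38.p6. Strand was not given for the counting in the sources used here. Alternatives were the pseudocount, 2 other filters, quantile normalization, no centring, summed symbols, the full length, the adjusted p alone, limma with a trend, the replicate block and each library left out. The remaining steps ran in Python 3.11.15 (scipy 1.17.1, numpy 2.4.6, numba 0.67.0, pandas 2.3.3).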

Additional observations from a re-analysis of the deposited data

How the results depend on the processing

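The calls rested on 4 libraries, and depth limited genes with few footprints. The 6 higher calls became 26 without centring, 10 with a trend in limma and 0 with the replicate block, and lay between 0 and 9 with a library left out. Lower calls rose from 0 to 2 after quantile normalization, 1 on the full length and 1 with a trend, and lay between 0 and 4 with a library left out. Over all tested genes, 760 higher calls became 413 with a pseudocount of 0.1, 4113 without centring, 27 with the replicate block, and 0 to 1359 with a library left out. The 270 lower calls became 130 with that pseudocount, 515 at 5 FPKM, 134 without a filter, 485 after quantile normalization, 65 without centring, 1 with the block, 477 with a trend, and 0 to 1287 with a library left out. Changes without centring follow from the shift of 1.26, and for the others the cause was not tested. The sources used here do not say whether same-numbered libraries share embryos. Deviations of same-numbered libraries had a correlation of 0.00994 across genes. This value cannot settle the question, because counting error in the shallow Ribo-seq libraries could hide a shared deviation. The members' median of 0.403 moved to 0.308 with the pseudocount of 0.1, 0.247 at 5 FPKM, 0.10 after quantile normalization, 1.66 without centring, 0.335 on the full length, and 0.402 to 0.531 with a library left out.

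Differences of single genes changed sign as follows. Without centring, Srp14 became 0.54, Srp19 0.26, Srpr 1.01, Sec61a1 0.51, Sec61g 1.19, Spcs1 0.45, Sec11a 1.12, Sec11c 0.29, Rpn1 1.07, Dad1 0.48 and Xbp1 1.06. After quantile normalization, Sec61b became -0.30, Ssr2 -0.21, Rpn2 -0.40, Ddost -0.20 and P4hb -0.20. On the full length, Srp9 became -0.25 and Sec61b -0.50. With a library left out, 6 genes changed sign in at least 1 case, with ranges of -0.0305 to 0.411 for Sec61b, -0.805 to 0.415 for Sec61g, -0.0172 to 0.28 for Ssr2, -0.132 to 0.131 for Rpn2, -0.146 to 0.436 for Ddost and -0.661 to 0.0239 for Xbp1. Sec61g became 0.0313 without a filter, and Rpn2 became -0.10 with a pseudocount of 0.1 and -0.0423 at 5 FPKM. The signs of the 6 called genes held in every alternative run, apart from Sec63 at 5 FPKM, where it was not tested.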
